A study of Mus musculus with 15 samples.

Results

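This account compares the open chromatin of reprogrammed hepatocytes with that of biliary cells, both isolated from the livers of mice treated with DDC (diethoxycarbonyl-dihydrocollidine, a diet agent that injures the bile ducts). It rests on the 3 reprogrammed and 3 DDC biliary libraries, chosen by their labels, of 15 mouse ATAC-seq libraries in all, with reads of the mitochondrial genome left out and each library rescaled to a total of 1000000. The other groups, DDC hepatocytes, untreated biliary cells and untreated hepatocytes (3 libraries each), entered no test here, and their levels are given beside the results. Cells were sorted from liver and not grown in culture. The labels read here name no sorting marker, reporter allele, sex, age, strain, DDC dose or duration. They also do not tie the 3 libraries of a group to separate mice, so each p-value rests on library-to-library spread alone, which may be technical.

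ATAC-seq cuts DNA with a transposase wherever nucleosomes leave it free, so a high read count marks a promoter, an enhancer or another regulatory element that is accessible to proteins. Hepatocytes make plasma proteins, bile acids and urea, whereas biliary cells (cholangiocytes) line the bile ducts and are marked by keratin 19, Epcam, osteopontin and Sox9. In mice fed DDC, hepatocytes around damaged ducts are known to take on biliary features while keeping some hepatocyte features, a process called reprogramming. The comparison with DDC biliary cells asks where the chromatin of such cells departs from that of duct cells in livers exposed to the same injury.

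The RefSeq promoter stretches of 6 genes that the results turn on are printed here as the 250 bases before the annotated start, read 5′ to 3′ on the gene's own strand (build GRCm38.p6). The 2 starts of Hnf4a are shown because they behaved differently, Nox4 and Fxyd1 because their promoter regions had the largest increases among the leading genes, Lrfn4 because its promoter region had the largest decrease, and Pate6 and Alb as a less accessible and an uncalled promoter with a motif match. They lie at chr2:163506607-163506856 (plus strand) and chr2:163546905-163547154 (plus strand) for Hnf4a, chr7:87246399-87246648 (plus strand) for Nox4, chr7:31054854-31055103 (minus strand) for Fxyd1, chr19:4615668-4615917 (minus strand) for Lrfn4, chr9:35790113-35790362 (minus strand) for Pate6 and chr5:90460620-90460869 (plus strand) for Alb. Capitals mark a match to the AP-1 motif TGANTCA in Pate6 and to the HNF4 motif CAAAGTC, on either strand, in Alb. The other stretches hold no match to the 6 motifs searched.
Hnf4a upstream start: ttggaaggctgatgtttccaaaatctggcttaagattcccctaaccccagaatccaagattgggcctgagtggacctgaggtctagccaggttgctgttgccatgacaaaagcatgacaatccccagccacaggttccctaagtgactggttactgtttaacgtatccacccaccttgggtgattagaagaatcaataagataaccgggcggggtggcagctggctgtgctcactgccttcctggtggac
Hnf4a downstream start: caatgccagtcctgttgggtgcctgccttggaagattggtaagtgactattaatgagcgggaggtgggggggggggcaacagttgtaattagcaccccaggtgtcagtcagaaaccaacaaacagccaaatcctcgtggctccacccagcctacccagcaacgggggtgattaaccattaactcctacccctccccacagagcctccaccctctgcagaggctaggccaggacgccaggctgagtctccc
Nox4: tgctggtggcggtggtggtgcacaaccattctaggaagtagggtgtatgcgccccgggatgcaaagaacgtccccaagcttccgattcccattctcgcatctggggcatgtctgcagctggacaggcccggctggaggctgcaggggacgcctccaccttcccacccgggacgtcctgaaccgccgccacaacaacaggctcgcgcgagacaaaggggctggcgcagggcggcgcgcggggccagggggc
Fxyd1: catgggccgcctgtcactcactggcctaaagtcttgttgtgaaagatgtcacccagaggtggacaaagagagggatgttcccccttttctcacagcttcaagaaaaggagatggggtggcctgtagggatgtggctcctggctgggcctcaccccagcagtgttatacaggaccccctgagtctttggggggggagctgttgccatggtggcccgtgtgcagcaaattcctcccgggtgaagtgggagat
Lrfn4: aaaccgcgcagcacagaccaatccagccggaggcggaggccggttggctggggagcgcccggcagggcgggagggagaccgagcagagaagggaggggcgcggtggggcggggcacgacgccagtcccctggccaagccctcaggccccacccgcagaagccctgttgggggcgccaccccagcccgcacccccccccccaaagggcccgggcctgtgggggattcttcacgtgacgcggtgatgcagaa
Pate6: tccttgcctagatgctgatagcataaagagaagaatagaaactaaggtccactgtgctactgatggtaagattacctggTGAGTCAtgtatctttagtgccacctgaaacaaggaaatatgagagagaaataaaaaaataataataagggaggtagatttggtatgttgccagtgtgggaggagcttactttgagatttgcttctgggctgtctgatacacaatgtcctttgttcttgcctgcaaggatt
Alb: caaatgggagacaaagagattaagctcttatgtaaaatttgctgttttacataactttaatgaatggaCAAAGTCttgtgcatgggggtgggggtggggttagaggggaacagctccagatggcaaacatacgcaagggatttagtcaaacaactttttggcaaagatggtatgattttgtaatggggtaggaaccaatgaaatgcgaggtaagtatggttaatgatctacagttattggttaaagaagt

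The 6 libraries held between 4756891 and 10395918 nuclear reads in 93215 nuclear regions, more than the 201705 to 4389653 of the other libraries. Mitochondrial reads took 9.24 ± 5.14% of reads in reprogrammed cells and 9.86 ± 2.64% in DDC biliary cells (SD, n = 3 each). Between replicates of a group, counts over regions gave a chi-square of 4.25 to 8.20 per degree of freedom, so no library repeated another. On the first principal component, which held 44.5% of the variance over 16317 genes, all reprogrammed libraries had negative scores and all DDC biliary libraries positive ones. Reprogrammed libraries varied more among themselves, with a median SD per gene of 0.216 (log2) against 0.145 in DDC biliary cells, and the SD was larger in reprogrammed cells for 66.9% of genes. The levels of 33 biliary identity genes summed to 4043, 3294 and 3871 nuclear RPM (reads per 1000000 nuclear reads) in reprogrammed libraries 1 to 3, against 4834, 5069 and 5276 in DDC biliary libraries 1 to 3 and 2005 to 2163 in DDC hepatocytes. The levels of 39 genes of hepatocyte function summed to 2457, 2010 and 4019 in reprogrammed libraries, against 1458, 2486 and 1816 in DDC biliary libraries and 9041 to 13020 in DDC hepatocytes. By the biliary list all reprogrammed libraries lay below the DDC biliary and above the DDC hepatocyte libraries, and the hepatocyte sums of reprogrammed and DDC biliary cells overlapped, all below DDC hepatocytes. The highest hepatocyte sum of each group was in its shallowest library, reprogrammed library 3 (14.8% mitochondrial reads) and DDC biliary library 2 (12.9%), and the part of depth and mitochondrial share in these sums was not tested. In bulk libraries a mixture of cells and a partly open site in every cell cannot be told apart.

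More genes and regions were called lower than higher in reprogrammed cells. A gene's level is the sum of the regions tied to it, and the test was limma on log2(nuclear RPM + 1) with a Benjamini-Hochberg adjusted p under 0.05. Of 16317 genes tested, 480 (2.94%) were higher and 696 (4.27%) were lower in reprogrammed cells than in DDC biliary cells, 1176 (7.21%) in all. Of 75806 regions, 1673 (2.21%) were higher and 4038 (5.33%) lower. Gene changes were moderate, with a median size of 0.82 (log2) among the higher and 0.79 among the lower genes, and 142 and 231 of them passed 1. The median change of all genes was 0.05, and 9540 genes had a positive and 6777 a negative change. The surplus of lower genes was not seen without reprogrammed library 2 (503 higher and 507 lower) or when only regions within 1 kb of a gene end counted (315 higher and 270 lower). The counts fell to 495 genes and 2174 regions without DDC biliary library 1 and to 512 genes and 2883 regions without DDC biliary library 3, and to 3782 and 3488 regions without reprogrammed library 1 or 2. When all 15 libraries shared 1 fit, 4 genes and 0 regions were called by limma (922 and 5714 at an unadjusted p under 0.05), while edgeR and DESeq2 on the 6 libraries called 5841 and 6410 regions.

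**Figure D1:**
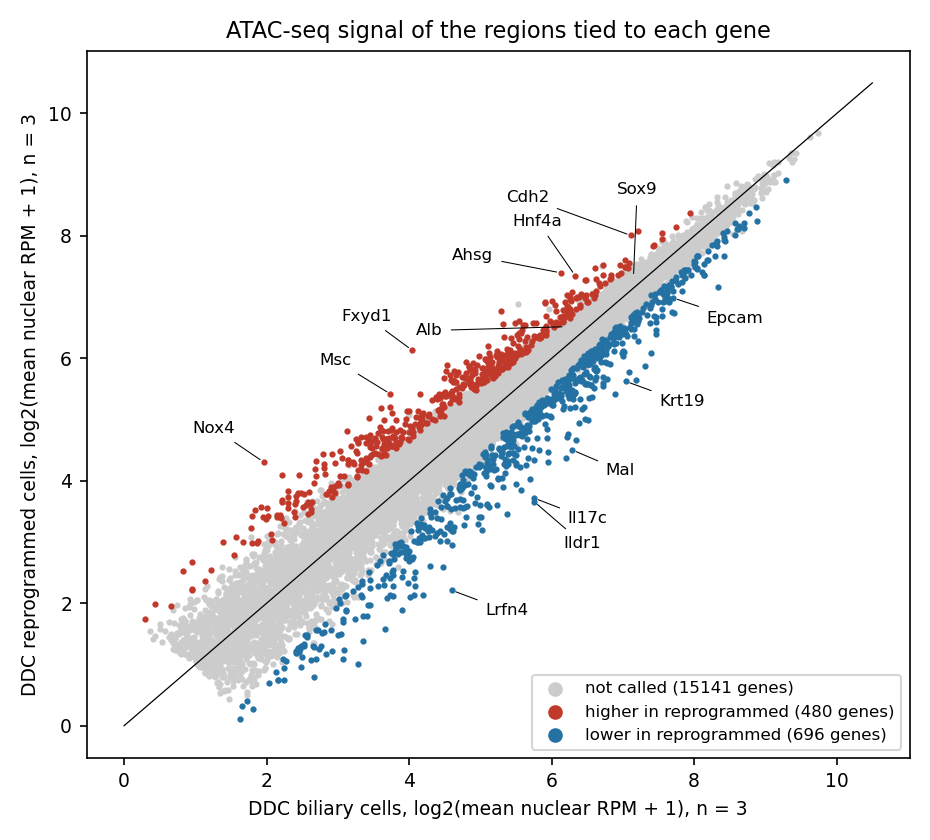
Mean accessibility per gene in reprogrammed cells (vertical axis) against DDC biliary cells (horizontal axis), both as log2(mean nuclear RPM + 1) over 3 libraries, with 480 genes called higher in red and 696 called lower in blue. Nox4 and Fxyd1 lie far above the diagonal, Lrfn4, Ildr1, Il17c and Krt19 far below it, and Sox9 and Alb lie close to it among the genes not called.

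The 12 genes with the largest gains were a mixed group led by Nox4, an NADPH oxidase that makes hydrogen peroxide, and Fxyd1 (phospholemman), a small regulator of the sodium pump. Nox4 had 18.7, 18.1 and 19.6 nuclear RPM in reprogrammed libraries 1 to 3, against 1.54, 3.49 and 3.62 in DDC biliary libraries 1 to 3. The groups did not overlap, and the difference was 2.40 ± 0.28 (log2, SE, limma adjusted p = 9.14e-05). Most of its reads came from the region over the promoter printed above (chr7:87246234-87248580), with 14.9, 15.6 and 16.8 nuclear RPM in reprogrammed cells and 1.15, 2.72 and 3.32 in DDC biliary cells. DDC hepatocytes averaged 29.9 ± 14.03 nuclear RPM at Nox4 and untreated biliary cells 4.14, so that the reprogrammed libraries lay on the hepatocyte side.

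Fxyd1 had 71.3, 64.9 and 71.7 nuclear RPM in reprogrammed cells, against 10.1, 20.2 and 16.03 in DDC biliary cells, all from 1 region (chr7:31053361-31059632) that covers the promoter printed above. The difference was 2.15 ± 0.20 (adjusted p = 1.17e-05), and of the 24 leading genes Fxyd1 was the only one still called when all 15 libraries shared 1 fit. Its level was 89.7 ± 11.1 in DDC hepatocytes and 43.2 in untreated biliary cells. Here DDC biliary cells, not reprogrammed cells, were the group at the low end.

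Of the other 10, Cpb2, Lcat, Pla2g12b and Glyat are known from liver. Cpb2, a plasma carboxypeptidase that slows clot breakdown, had 26.4, 25.03 and 29.6 nuclear RPM in reprogrammed cells and 6.16, 10.48 and 6.55 in DDC biliary cells (1.71 ± 0.23, adjusted p = 0.000275), with 3 of its 3 tested regions higher. Lcat, the plasma enzyme that esterifies cholesterol, averaged 11.9 ± 1.12 in reprogrammed cells and 3.63 ± 2.27 in DDC biliary cells (SD, n = 3 each). Pla2g12b, a secreted phospholipase-like protein of the liver and gut, averaged 20.6 ± 6.49 and Glyat, a glycine-conjugating enzyme of mitochondria, 10.9 ± 4.78 in reprogrammed cells, against 5.92 ± 1.19 and 2.78 ± 1.31 in DDC biliary cells. All 4 were higher still in DDC hepatocytes, at 22.2 to 49.3 nuclear RPM. Glyat lost its call without reprogrammed library 1. Slc66a1, an exporter of cationic amino acids from lysosomes, and Gltpd2 averaged 16.1 ± 2.12 and 16.04 ± 2.02 in reprogrammed cells, against 4.46 ± 1.71 and 3.65 ± 0.62 in DDC biliary cells. The region over the Slc66a1 promoter, which was tied to a shorter gene and is not in that sum, had 42.1, 51.7 and 34.5 in reprogrammed cells and 37.5, 36.9 and 37.2 in DDC biliary cells and was not called (0.18, adjusted p = 0.623).

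F2r, the thrombin receptor PAR1, had 29.9, 32.5 and 32.6 nuclear RPM in reprogrammed cells and 8.27, 10.7 and 10.7 in DDC biliary cells (1.59 ± 0.20, adjusted p = 0.000156), with 3 of 4 regions higher. Untreated biliary cells had 29.1 at F2r, close to the reprogrammed level, so that DDC biliary cells again stood apart. Msc (musculin), a repressor of the bHLH family, showed another pattern: it had 48.6, 47.3 and 29.4 nuclear RPM in reprogrammed cells and 12.9, 15.7 and 8.40 in DDC biliary cells, while DDC hepatocytes (13.6) and untreated biliary cells (12.3) were as low as DDC biliary cells. The shallow untreated hepatocyte libraries had 19.8, 11.6 and 34.1 at Msc. Pou3f4, a POU-domain transcription factor of brain and inner ear, averaged 10.6 ± 2.03 in reprogrammed cells and 2.59 ± 0.98 in DDC biliary cells. Adad2, a gene of testis, averaged 19.1 ± 7.24 in reprogrammed cells and 5.47 ± 1.69 in DDC biliary cells, and its region lay at the 3′ end of the gene.

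**Figure D2:**
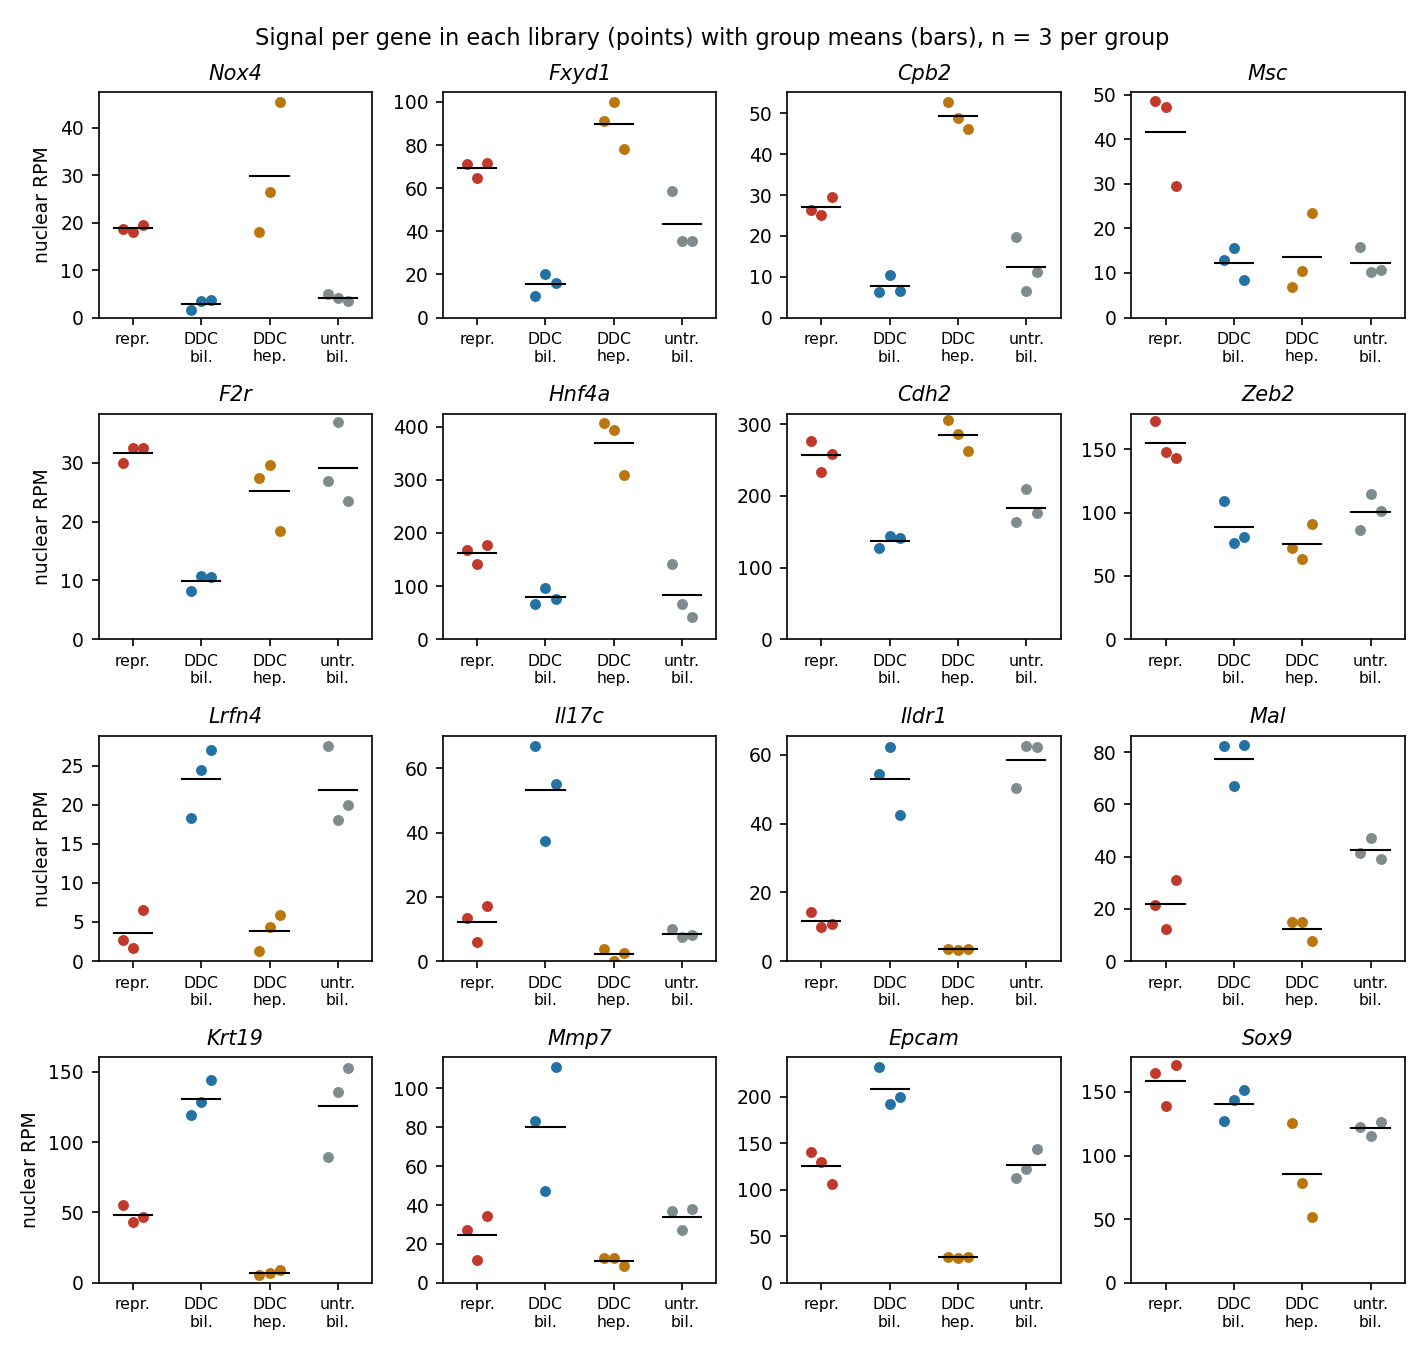
Nuclear RPM per gene in each library (points) with group means (bars, n = 3 per group), for reprogrammed cells, DDC biliary cells, DDC hepatocytes and untreated biliary cells from left to right. Among the groups drawn, which leave out untreated hepatocytes, Msc and Zeb2 are highest in reprogrammed cells. Nox4 and Cpb2 are shared with DDC hepatocytes, and Ildr1 and Krt19 are high in both biliary groups.

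The leading losses were headed by Lrfn4. Lrfn4, a leucine-rich adhesion protein known from synapses, had 2.74, 1.63 and 6.52 nuclear RPM in reprogrammed cells and 18.3, 24.5 and 27.1 in DDC biliary cells, all from the region over its promoter (chr19:4614690-4616347). The difference was -2.51 ± 0.32 (adjusted p = 0.000198), and reprogrammed cells were at the level of DDC hepatocytes (3.82). Ildr1, a protein of tricellular junctions, had 14.1, 9.97 and 10.7 in reprogrammed cells and 54.4, 62.3 and 42.5 in DDC biliary cells (-2.10 ± 0.20, adjusted p = 1.17e-05), with both its promoter region and an upstream region lower. Mal, a proteolipid that carries proteins to the apical membrane, averaged 21.7 ± 9.40 in reprogrammed cells and 77.3 ± 8.97 in DDC biliary cells, and all 6 of its tested regions were lower.

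Il17c, a cytokine made by epithelia, had 13.5, 5.90 and 17.0 nuclear RPM in reprogrammed cells and 66.8, 37.3 and 55.1 in DDC biliary cells (-2.11 ± 0.29, adjusted p = 0.000275). Untreated biliary cells had 8.47 at Il17c, within the range of reprogrammed cells, so the high level was that of biliary cells after DDC. Ildr1, with 58.5 in untreated biliary cells, and Lrrn1, a leucine-rich neuronal protein with 46.4 there, were high in biliary cells with and without DDC. Lrrn1 averaged 10.01 ± 3.39 in reprogrammed cells and 40.4 ± 2.81 in DDC biliary cells.

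Of the other 7 leading losses, Psg25 (a pregnancy-specific glycoprotein), Pate6, Colec10 (a collectin), Pigx (a subunit of the enzyme for GPI anchors), Trappc11 (a vesicle tethering factor), Olfr986 (an olfactory receptor) and Grik1 (a kainate receptor) had means of 1.995 to 8.12 nuclear RPM in reprogrammed cells and 11.7 to 31.5 in DDC biliary cells. The called regions of Colec10, Trappc11, Olfr986, Psg25 and Grik1 do not touch the gene body, and each was tied to its gene only as the nearest within 50 kb. Grik1 lost its call when only touching regions counted, a setting that left Colec10, Trappc11, Olfr986 and Psg25 without a tested region. The level of these genes is therefore the level of an element near them. The Trappc11 promoter region, tied to another gene, had 76.2, 120 and 97.5 in reprogrammed cells and 84.9, 78.04 and 80.3 in DDC biliary cells, and was not called (0.25, adjusted p = 0.354). The Pigx promoter region had 41.3, 46.6 and 28.2 in reprogrammed cells and 36.8, 36.9 and 47.2 in DDC biliary cells, and was not called either (-0.08, adjusted p = 0.869).

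The biliary identity genes were the list with the most calls and the largest share called. Of 33 tested, 15 were lower in reprogrammed cells (45.5%, against 4.27% of all genes), 0 were higher and 18 did not pass. Their median change was -0.45, against 0.05 for all genes. Krt19, the duct keratin, had 55.2, 43.2 and 46.5 nuclear RPM in reprogrammed cells and 119, 128 and 144 in DDC biliary cells (-1.42 ± 0.13, adjusted p = 1.17e-05). The groups lay far apart, and reprogrammed cells were still above DDC hepatocytes, at 7.16 ± 1.88. Mmp7, a protease of injured ducts, fell to 24.4 ± 11.5 in reprogrammed cells, against 80.3 ± 32.1 in DDC biliary cells, the largest change of the list.

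Other duct genes changed less or did not pass. Epcam, an epithelial adhesion protein, had 141, 130 and 107 nuclear RPM in reprogrammed cells and 232, 192 and 200 in DDC biliary cells (-0.73 ± 0.12, adjusted p = 0.00152). Spp1, which encodes osteopontin, had 101, 87.0 and 118 in reprogrammed cells and 135, 225 and 198 in DDC biliary cells (-0.84 ± 0.16, adjusted p = 0.00336). The biliary transcription factor Sox9 did not differ beyond the spread, with 165, 139 and 171 in reprogrammed cells and 127, 144 and 152 in DDC biliary cells (0.17 ± 0.12, adjusted p = 0.482). Without DDC biliary library 3 the list had 9 lower members.

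The sum over a gene hid opposite changes at Sox9. An element centred 14.7 kb before its start (chr11:112766702-112768257) had 2.96, 1.42 and 6.10 nuclear RPM in reprogrammed cells and 11.9, 11.7 and 13.5 in DDC biliary cells (-1.71 ± 0.34, adjusted p = 0.00344). A second element centred 29 kb after the start (chr11:112810245-112812098) had 25.4, 22.0 and 22.1 in reprogrammed cells and 10.6, 6.99 and 8.80 in DDC biliary cells (1.32 ± 0.24, adjusted p = 0.00174). The region over the gene itself carried most of the reads, 111 ± 9.88 in reprogrammed cells and 102 ± 11.9 in DDC biliary cells, and was not called. Among all genes, 199 had called regions in both directions.

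At Krt19 the loss was spread over the locus instead. The region over the gene (chr11:100136033-100146661) had 37.3, 31.03 and 34.3 nuclear RPM in reprogrammed cells and 80.3, 82.9 and 105 in DDC biliary cells (-1.35 ± 0.16, adjusted p = 5.12e-05). A further 4 regions between 7.5 and 18.8 kb before the start were lower too, by -0.90 to -1.79 (log2). Over all genes, 46 had at least 3 higher regions and 223 at least 3 lower ones. Casz1, a zinc finger factor, had the largest number of lower regions, 10 of 25 tested, with 203 ± 9.27 nuclear RPM in reprogrammed cells and 341 ± 5.39 in DDC biliary cells.

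**Figure D3:**
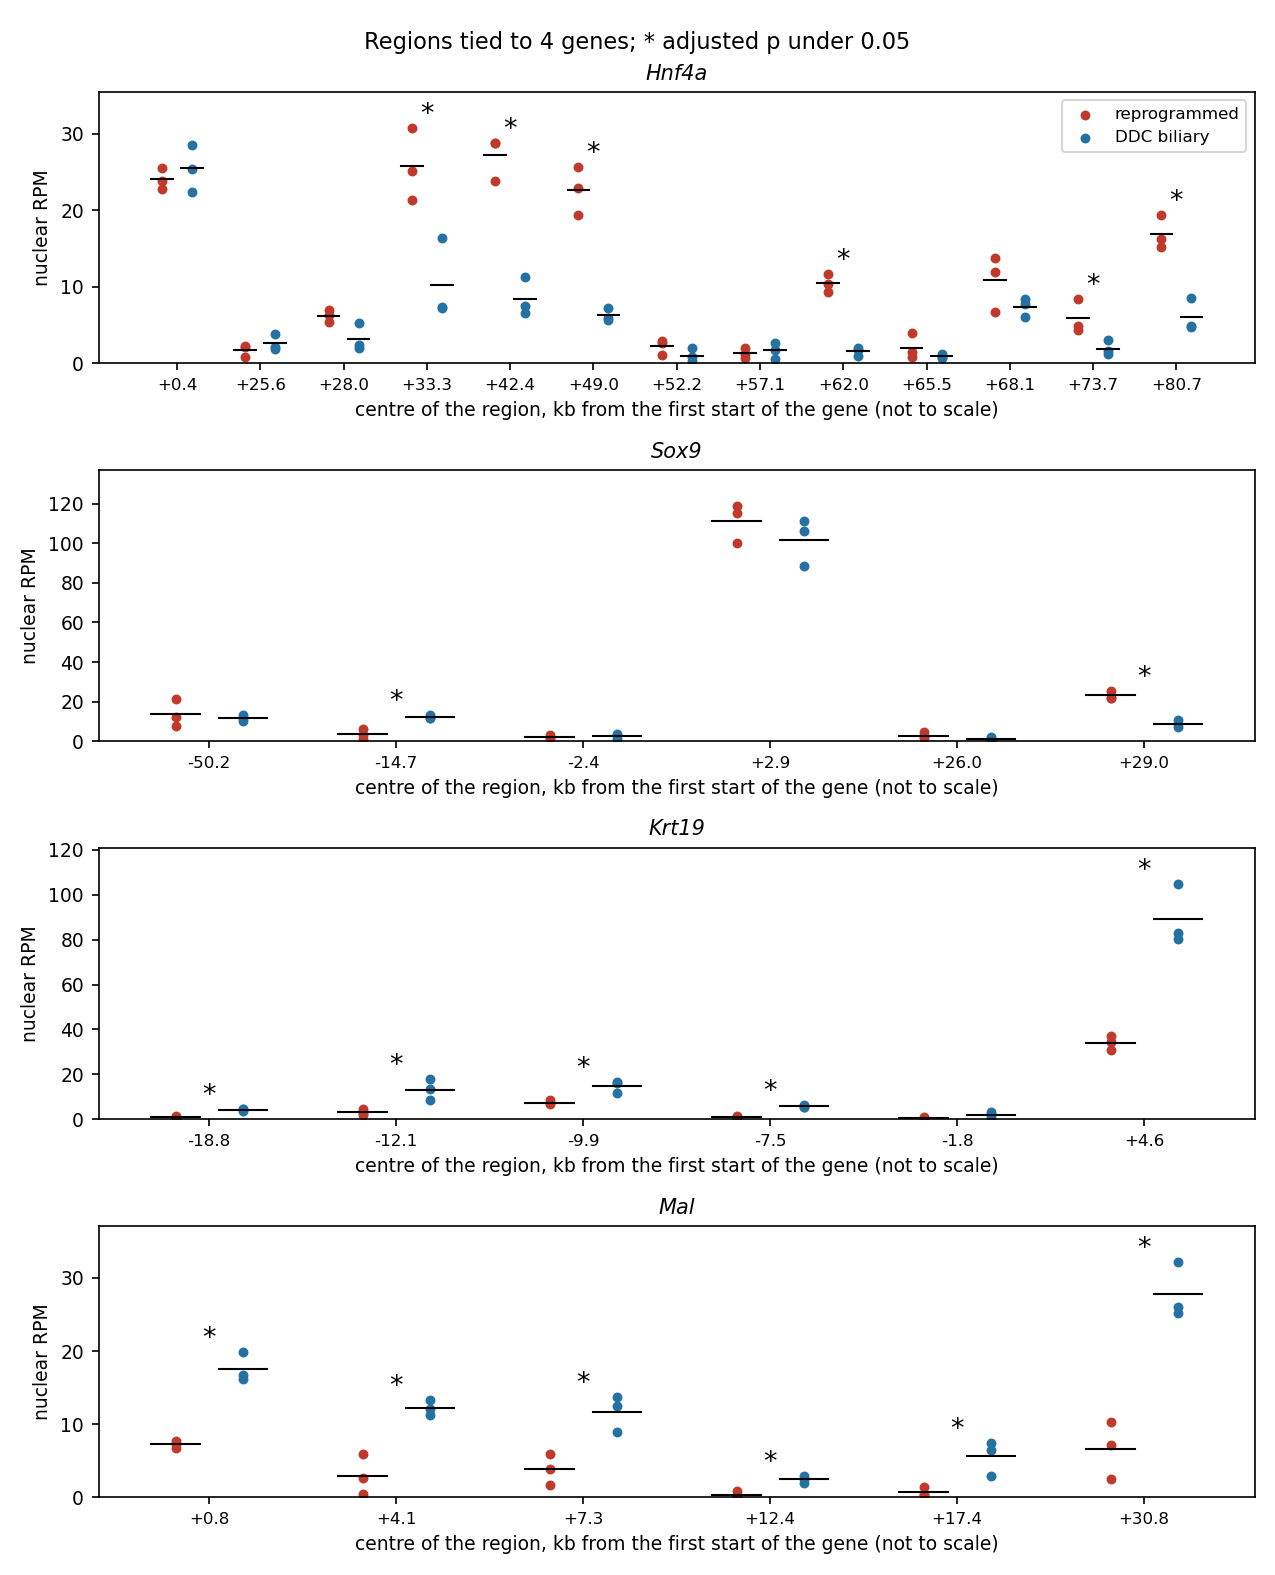
Nuclear RPM of each tested region tied to Hnf4a, Sox9, Krt19 and Mal, ordered by the distance of its centre from the first start of the gene, with the 3 reprogrammed libraries in red left of the 3 DDC biliary libraries in blue and bars at the means. Asterisks mark an adjusted p under 0.05: 6 of 13 regions are higher at Hnf4a, 1 is lower and 1 higher at Sox9, 5 of 6 are lower at Krt19 and 6 of 6 at Mal.

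Hnf4a, the nuclear receptor that drives hepatocyte genes, was more accessible in reprogrammed cells through its downstream promoter alone of the 2. The gene had 167, 142 and 178 nuclear RPM in reprogrammed cells and 66.5, 95.7 and 76.1 in DDC biliary cells (1.03 ± 0.14, adjusted p = 0.000275), with 370 ± 52.5 in DDC hepatocytes. In mouse the downstream promoter, called P1, is the one of adult liver, and the upstream promoter, P2, is known from embryonic liver and pancreas. The P1 region (chr2:163546546-163551955) had 28.8, 23.8 and 28.8 in reprogrammed cells and 6.64, 11.3 and 7.43 in DDC biliary cells (1.60 ± 0.25, adjusted p = 0.000437), and 54.0 ± 9.65 in DDC hepatocytes. The reprogrammed and DDC biliary libraries did not overlap there. Untreated biliary libraries 1 to 3 had 23.8, 8.20 and 5.01 nuclear RPM at P1 and 142.1, 66.4 and 41.2 over the gene. Library 1 of that group thus matched reprogrammed library 2 at both. Its sum over the genes of hepatocyte function, 3912, was also above those of reprogrammed libraries 1 and 2. An element inside the gene (chr2:163568000-163569659) had 9.32, 11.7 and 10.3 in reprogrammed cells and 1.73, 1.94 and 0.977 in DDC biliary cells (2.18 ± 0.32, adjusted p = 0.000299), the largest change of the 13 regions. The P2 region (chr2:163506168-163508254) had 25.5, 22.8 and 23.8 in reprogrammed cells and 22.4, 28.5 and 25.4 in DDC biliary cells (-0.07 ± 0.20, adjusted p = 0.876), and 20.7 ± 2.64 in DDC hepatocytes. The change at P1 minus the change at P2, tested within libraries, was 1.68 ± 0.23 (adjusted p = 0.00414), and it was 1.61 to 1.80 without any 1 library.

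The same test over all genes with annotated starts in different tested regions covered 568 pairs of start regions in 459 genes and called 39 pairs (6.87%) in 35 genes. In 26 pairs the downstream start was the less accessible in relative terms in reprogrammed cells, and in 13 the more accessible. The genes named next were chosen after their values were seen. Anxa9, an annexin, had 6.80, 3.76 and 4.63 nuclear RPM at its downstream start in reprogrammed cells and 34.5, 42.3 and 20.4 in DDC biliary cells, while its upstream region, 7.99 kb away, had 93.3 to 109 in reprogrammed cells and 79.7 to 91.4 in DDC biliary cells (difference of the changes -2.69 ± 0.32, adjusted p = 0.00414). Ltbp1, which stores latent TGF-beta in the matrix, had 1.97, 2.44 and 2.10 at its downstream start in reprogrammed cells and 12.4, 12.6 and 5.57 in DDC biliary cells. Its upstream start, 173 kb away, had 15.98 to 21.4 in reprogrammed cells and 22.6 to 25.6 in DDC biliary cells (difference -1.45 ± 0.30, adjusted p = 0.0266). Arhgef7, an exchange factor for Rac, differed through its upstream start, with 22.7, 21.1 and 23.3 in reprogrammed cells and 4.14, 6.41 and 6.74 in DDC biliary cells. The count of called pairs ranged from 10 to 38 without any 1 library.

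Most genes of hepatocyte function did not pass the test, and all that passed were higher in reprogrammed cells. Of 39 tested, 6 were higher (15.4%, against 2.94% of all genes), 0 lower and 33 did not pass, with a median change of 0.52. A positive change was seen at 36 of the 39, and at 9540 of all 16317 genes. F2 (prothrombin) had 20.1, 11.2 and 23.5 nuclear RPM in reprogrammed cells and 4.62, 8.35 and 4.98 in DDC biliary cells (1.44 ± 0.29, adjusted p = 0.0049). Ahsg (fetuin-A) averaged 168 ± 64.7 and Fga (fibrinogen alpha) 27.5 ± 4.74 in reprogrammed cells, against 68.9 ± 34.95 and 11.1 ± 3.999 in DDC biliary cells. Alb, the albumin gene, was not called, with 83.3, 61.3 and 127 in reprogrammed cells and 47.4, 117 and 54.0 in DDC biliary cells (0.37 ± 0.26, adjusted p = 0.486), and both groups lay far below DDC hepatocytes (693 ± 209). The overlap at Alb came from DDC biliary library 2. Without that library 11 members were higher, without reprogrammed library 2 it was 12, and with TMM scaling 12.

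Most hepatocyte transcription factors did not separate the groups. Of 21 tested, Hnf4a and Creb3l3, a membrane-bound factor of lipid metabolism, were higher and the other 19 did not pass, with a median of 0.11. Creb3l3 averaged 47.9 ± 6.34 nuclear RPM in reprogrammed cells and 24.04 ± 6.48 in DDC biliary cells (0.99 ± 0.19, adjusted p = 0.00394). When only regions within 1 kb of a gene end counted, which leaves out Hnf4a P1, the list had 0 calls. Bile acid and bile transport genes had 4 of 21 higher and 0 lower, with a median of 0.54. They included Abcb4, the phospholipid pump of the canaliculus, at 68.3 ± 14.03 in reprogrammed cells and 36.8 ± 9.02 in DDC biliary cells, Cyp7b1, of the alternative bile acid route, at 56.5 ± 2.45 in reprogrammed cells and 33.0 ± 5.09 in DDC biliary cells, and Cyp27a1, of the same route, at 28 ± 1.63 in reprogrammed cells and 15.5 ± 7.89 in DDC biliary cells. The count was 2 with edgeR and without reprogrammed library 1, DDC biliary library 1 or DDC biliary library 3. Zonation genes had 1 of 19 higher (Gls2, glutaminase of periportal hepatocytes, 0.53 ± 0.13) and 1 lower (Cdh1, E-cadherin, -0.49 ± 0.11), shares near the 2.94% and 4.27% of all genes. The higher count was 4 without reprogrammed library 2, 3 with TMM scaling or values as deposited and 0 without DDC biliary library 1, and Cdh1 lost its call without DDC biliary library 3.

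**Figure D4:**
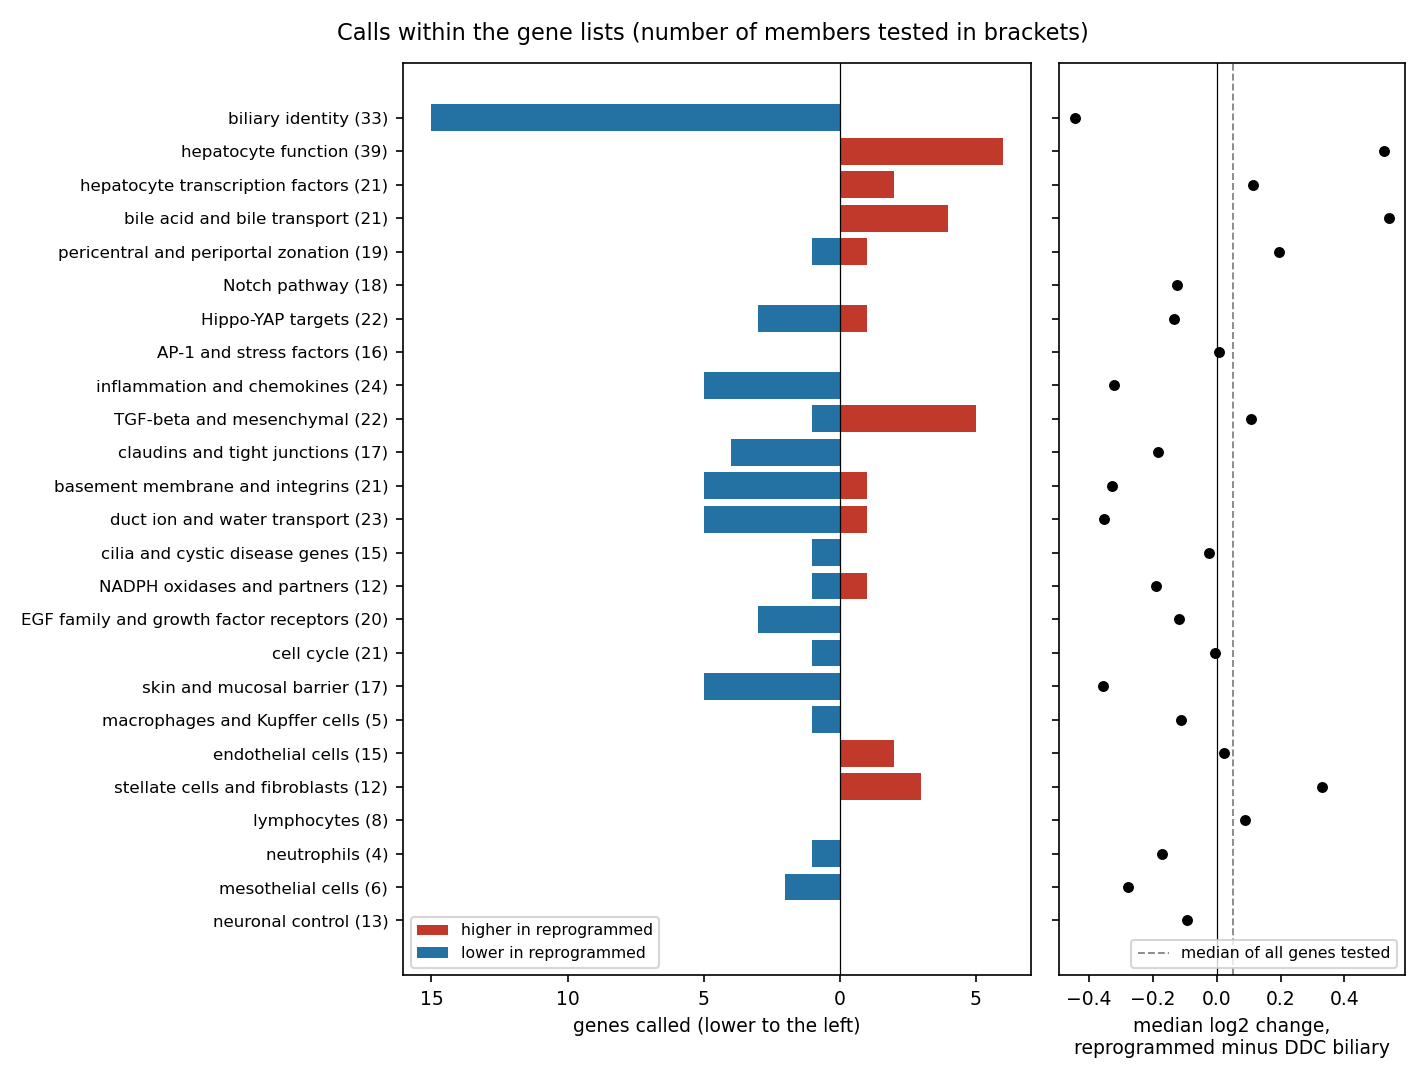
Members of each gene list called lower (blue, to the left) and higher (red, to the right) in reprogrammed cells than in DDC biliary cells, and on the right the median log2 change of the tested members, with the median of all 16317 genes as a dashed line. Biliary identity has 15 lower of 33, hepatocyte function 6 higher of 39, and the Notch and AP-1 lists have no call.

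Some mesenchymal genes were more accessible in reprogrammed cells than in DDC biliary cells. Of 22 genes of TGF-beta signalling and the mesenchymal programme, 5 were higher and 1 was lower, with a median of 0.11. Of all genes, 2.94% were higher and 4.27% lower. Cdh2 (N-cadherin), a cadherin also of hepatocytes, had 277, 233 and 259 nuclear RPM in reprogrammed cells and 127, 144 and 141 in DDC biliary cells (0.89 ± 0.11, adjusted p = 0.000145), with 5 of 17 regions higher. Its mean was 284.5 ± 21.9 in DDC hepatocytes and 315.4 ± 29.2 in untreated hepatocytes, above the 256.3 of reprogrammed cells. Untreated biliary cells had 182.8 ± 23.4, so the reprogrammed level of Cdh2 lay on the hepatocyte side. Zeb2, a repressor of epithelial genes, had 172, 148 and 143 in reprogrammed cells and 109, 76.1 and 80.3 in DDC biliary cells (0.81 ± 0.14, adjusted p = 0.0015), above its 75.3 ± 14 in DDC hepatocytes. Zeb2 had 178.5, 61.1 and 144.8 in untreated hepatocytes, the shallowest libraries. Snai2, a factor of the same kind, averaged 51.8 ± 14.99 in reprogrammed cells and 24.1 ± 8.59 in DDC biliary cells, and lost its call without reprogrammed library 1. The lower member was Ltbp1 (-0.48 ± 0.14, adjusted p = 0.0498), which lost its call in 10 of 20 other settings.

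A few markers of non-epithelial liver cells were higher too. They were 25% of the stellate and 13.3% of the endothelial genes tested, against 2.94% of all genes. Of 12 stellate cell and fibroblast genes tested, 3 were higher (Des, desmin, 0.94 ± 0.22, Pdgfra, a growth factor receptor, 0.66 ± 0.15, and Reln, 0.52 ± 0.14), and their list summed to 342 to 383 nuclear RPM in reprogrammed cells, against 288 to 317 in DDC biliary cells. Of 15 endothelial genes, Stab2 (1.003 ± 0.18) and Stab1 (0.80 ± 0.20), scavenger receptors of sinusoids, were higher, and the list summed to 270 to 350 nuclear RPM in reprogrammed cells, against 270 to 299 in DDC biliary cells. Stab2 was higher again in DDC hepatocytes, at 106 ± 11.7 nuclear RPM. The endothelial median change was 0.02. Their part in the mesenchymal genes was not tested. Counting only regions that touch the gene gave Des a change of -0.20, so its increase lay in regions outside the gene, and Reln lost its call without 4 of the 6 single libraries. Without DDC biliary library 3 the stellate list had 0 calls, without reprogrammed library 1 or DDC biliary library 1 it had 1, and the endothelial list had 1 without any of these 3 libraries.

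Of 5 macrophage genes tested, C1qb (complement C1q) was lower, at 1.46 ± 0.47 nuclear RPM in reprogrammed cells and 4.56 ± 1.20 in DDC biliary cells, and lost the call without most single libraries. The lymphocyte list had 0 of 8 called and the neuronal control list 0 of 13, where 7.21% of all genes were called. Ltf (lactoferrin), of neutrophils, was lower (-0.85 ± 0.25), and so were the mesothelial markers Msln (-0.91 ± 0.21) and Muc16 (-0.74 ± 0.20), which injured ducts can also make. Ltf lost its call in 10 of 20 other settings, Msln in 4 and Muc16 in 6, and the mesothelial count was 0 without reprogrammed library 2 or DDC biliary library 1. Of 13 macrophage, 10 neutrophil and 14 lymphocyte markers, 6, 6 and 8 had any region, and the lists summed to 104 to 132, 26.3 to 38.5 and 91.3 to 97.8 nuclear RPM in reprogrammed cells, against 114 to 143, 26.01 to 40.4 and 90.6 to 100 in DDC biliary cells, so that all 3 overlapped.

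Part of the genes of the duct as a barrier and a secretory tube were lower, against 4.27% of all genes. In the claudin and tight junction list 4 of 17 were lower, 0 higher and 13 not called, among them Cldn8 (19.1 ± 10.2 nuclear RPM in reprogrammed cells, 53.1 ± 4.32 in DDC biliary cells), Cldn4 (164 ± 32.2 in reprogrammed cells, 280 ± 44.1 in DDC biliary cells) and Cldn7 (31.2 ± 2.50 in reprogrammed cells, 52.3 ± 2.15 in DDC biliary cells). In the ion and water transport list 5 of 23 were lower, Fxyd1 was higher and 17 were not called. Ano1, a calcium-activated chloride channel, averaged 64.6 ± 16.4 in reprogrammed cells and 127 ± 2.89 in DDC biliary cells, and Kcnq1, a potassium channel, 112 ± 14.4 in reprogrammed cells and 186 ± 3.13 in DDC biliary cells. Car2, a carbonic anhydrase that supplies bicarbonate, averaged 69.5 ± 14.1 in reprogrammed cells and 107 ± 8.19 in DDC biliary cells. Basement membrane and integrin genes had 5 of 21 lower, among them the laminin chains Lamb1 (-0.77 ± 0.17) and Lama3 (-0.73 ± 0.21) and the collagen Col4a2 (-0.63 ± 0.17), and 1 higher (Nid2, nidogen-2, 0.45 ± 0.13, lost in 13 other settings), but 0 were lower without DDC biliary library 1, 1 without DDC biliary library 3 and 2 without reprogrammed library 2. The transport list had 3 lower without reprogrammed library 1, DDC biliary library 1 or DDC biliary library 3.

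Of 24 inflammatory genes 5 were lower, 0 higher and 19 not called, with a median of -0.32, against 4.27% of all genes called lower. Il1a, an alarm cytokine, had 14.4, 7.43 and 7.15 nuclear RPM in reprogrammed cells and 29.4, 32.0 and 32.1 in DDC biliary cells (-1.66 ± 0.24, adjusted p = 0.00041). Il23a (a subunit of interleukin-23) averaged 22.6 ± 6.995 in reprogrammed cells and 40.4 ± 5.20 in DDC biliary cells. Cxcl2, a neutrophil chemokine, averaged 27.5 ± 5.39 in reprogrammed cells and 47.8 ± 2.85 in DDC biliary cells. Mucosal barrier genes had 5 of 17 lower, among them Pglyrp4, which binds bacterial cell walls, at 9.66 ± 2.84 in reprogrammed cells and 30.7 ± 3.44 in DDC biliary cells, Muc13 (-1.17 ± 0.29) and Tff1 (-0.92 ± 0.23). Untreated biliary cells had 1.61 at Pglyrp4. Without DDC biliary library 3 each of these lists kept a count of 1, without DDC biliary library 1 they had 3 and 1, and without reprogrammed library 2 also 3 and 1.

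Calls in the signalling lists are set beside the 7.21% of all genes called in either direction. Of 18 Notch genes and 16 AP-1 and stress factors, 0 were called, with medians of -0.13 and 0.01. Lists this short cannot tell 0 calls from that share. The member with the largest change was Maml2, a Notch coactivator (-0.33 ± 0.11, adjusted p = 0.0873), in one list and Fosl1, an AP-1 subunit (-0.35 ± 0.19, adjusted p = 0.321), in the other. Hippo-YAP targets had 3 of 22 lower, namely Amotl1 (94.4 ± 22.1 nuclear RPM in reprogrammed cells, 166 ± 23.4 in DDC biliary cells), Rbms3 and Ankrd1, and Nt5e higher (54.9 ± 4.77 in reprogrammed cells, 29.3 ± 1.69 in DDC biliary cells). These were 18.2% of the list. Without reprogrammed library 2 or with TMM scaling 3 were higher, and Ankrd1 lost its call without DDC biliary library 2 or 3. The NADPH oxidase list, with 16.7% of 12 genes called, had Nox4 higher and Cyba, the membrane subunit that pairs with several oxidases, lower. Cyba was at 35.6 ± 5.46 in reprogrammed cells and 75.8 ± 13.9 in DDC biliary cells. Cyba and Il17c are neighbours on chromosome 8 (GRCm38.p6, 122424771 to 122432940 and 122422020 to 122423639). EGF family and receptor genes had 3 of 20 lower (Erbb2, Erbb3 and Igf1r, by -0.45 to -0.76) but 0 without DDC biliary library 3, the cell cycle list had 1 of 21 (Cdkn2b, a cyclin-dependent kinase inhibitor, -0.45 ± 0.12), and the cilia list 1 of 15 (Pkhd1, fibrocystin, -0.51 ± 0.13), near the 4.27% of all genes called lower. Cdkn2b lost its call in 8 other settings and Pkhd1 in 5.

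The surplus of lower regions lay away from promoters. Of 12270 tested regions over a RefSeq promoter window, 2.14% were higher and 2.60% lower in reprogrammed cells. Of 63536 other regions, 2.22% were higher and 5.85% lower. Some genes, Krt19 and Sox9 among them, had no such window, so regions over their starts count among the other regions. Regions within 1 kb of a gene end, a class that does not rest on these windows, had 2.12% higher and 2.25% lower. Promoter regions held more reads (a median of 29.5 nuclear RPM against 3.46), so the shares were also taken among regions with 10 nuclear RPM or more, where 1.87% were higher and 2.20% lower over promoters, and 2.93% were higher and 9.31% lower elsewhere. Regions over 50 kb from any gene had 2.52% higher and 6.89% lower. Over the positions drawn in the plot of region shares, without a minimum level, the share of higher regions was 1.77 to 2.52%.

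**Figure D5:**
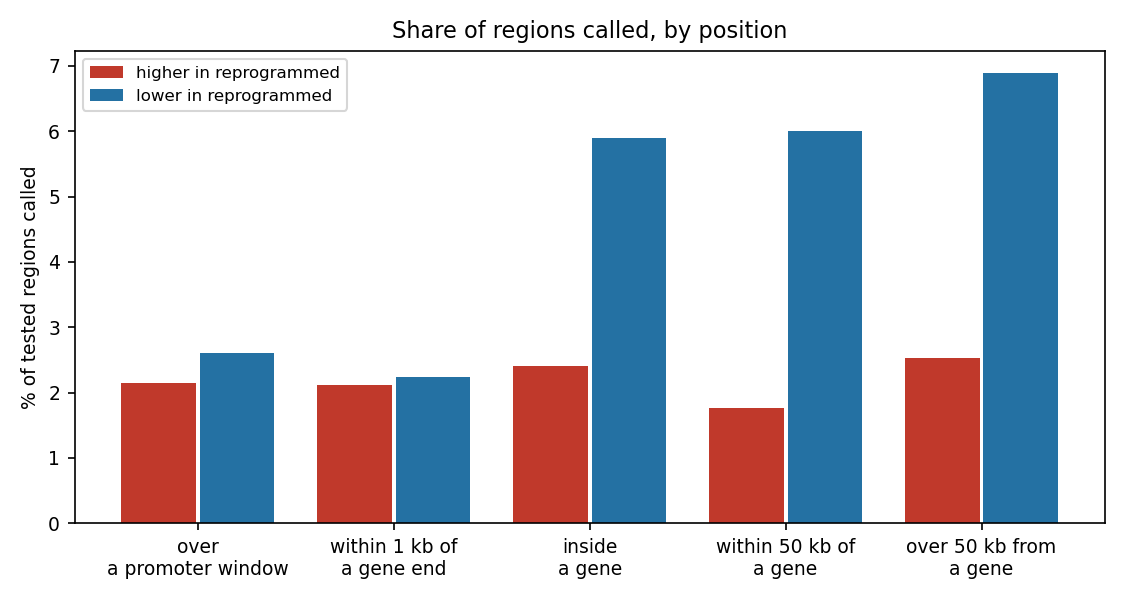
Share of tested regions called higher (red) and lower (blue) in reprogrammed cells than in DDC biliary cells, by position relative to genes. The lower share is 2.25 to 2.60% over promoter windows and gene ends and 5.85 to 6.89% in the other classes, while the higher share lies between 1.77 and 2.52%.

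The region with the largest gain (chr7:77888347-77889344) lies over 50 kb from any protein-coding gene and had 18.2, 18.7 and 26.3 nuclear RPM in reprogrammed cells and 1.15, 3.11 and 0.977 in DDC biliary cells (3.07 ± 0.32, adjusted p = 1.77e-05). DDC hepatocytes averaged 13.3 there. The next were an element inside Slc41a2, a magnesium transporter (2.49 ± 0.33), one near Ghitm (2.44 ± 0.36), the Nox4 promoter and one far from genes at chr8:10919517-10920209 (2.33 ± 0.30). The largest losses were near Grik1 (-2.59 ± 0.33), inside Mdc1 (-2.59 ± 0.33), at chr8:44260940-44261665 (-2.54 ± 0.33), at the Lrfn4 promoter and inside Bace2 (-2.50 ± 0.33). The Grik1 element had no read in any DDC hepatocyte library.

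The share of promoters with the AP-1 motif was largest among those in lower regions. Both strands of the 300-base windows (250 bases before to 50 after the start) were searched, and windows of 1 gene can overlap. TGANTCA was in 6.52% of 353 windows in higher regions, 16.1% of 386 in lower regions, 5.72% of 15635 in regions not called and 7.81% of all 32851 windows. The HNF4 motif CAAAGTC was in 8.499%, 5.44%, 4.11% and 4.44%, and the TEAD motif GGAATG in 16.1%, 19.4%, 12.5% and 14.7%, in the same order. The FOXA motif TGTTTAC was in 5.38%, 3.11%, 3% and 3.65%, the GRHL motif ACCGGTT in 0.85%, 1.81%, 1.41% and 1.02%, and the ETS motif CCGGAAG, frequent in housekeeping promoters, in 1.42%, 6.99%, 15.4% and 8.86%. These shares are descriptions with no test, and sites of different motifs can overlap.

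The called genes were also read in libraries that entered no test. Between DDC hepatocytes and untreated biliary cells, a difference that shares no library with the comparison, 426 of the 480 higher genes (88.8%) and 67 of the 696 lower genes (9.63%) were higher in DDC hepatocytes, as were 42.7% of all tested genes. Untreated hepatocytes, which had few nuclear reads, gave 80.4%, 12.8% and 35.5% against untreated biliary cells. Among genes whose reprogrammed and DDC biliary libraries did not overlap (24.5% of all tested), the reprogrammed libraries also lay on the DDC biliary side of all DDC hepatocyte libraries, and so between both groups, at 248 of 471 called higher (52.65%), 410 of 679 called lower (60.38%) and 908 of 2843 not called (31.94%). These shares are descriptions, and part of the difference between them was fixed by the call.

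At some genes the reprogrammed libraries lay outside the range of the other DDC groups and untreated biliary cells. At 40 of the 480 higher genes (8.33%) the 3 reprogrammed libraries lay above all 9 libraries of DDC biliary cells, DDC hepatocytes and untreated biliary cells, as at 218 of all 16317 tested genes (1.34%). At 13 of the 696 lower genes (1.87%) they lay below all 9, as at 42 of all tested genes (0.257%). Such a position requires no overlap with the DDC biliary libraries. Of the called genes, 471 of the 480 higher and 679 of the 696 lower already had none. Part of the difference between these shares was therefore fixed by the call. Untreated hepatocytes, the shallowest libraries, were left out, and their values were higher or lower than those of reprogrammed cells at some of these genes. The genes given here were chosen after their values were seen. Tbx1, a T-box factor of pharyngeal development, had 123.5, 120 and 79.9 nuclear RPM in reprogrammed cells and 36.2, 46.4 and 32 in DDC biliary cells (1.46 ± 0.17, limma adjusted p = 0.000111), with 45.3 ± 9.69 in DDC hepatocytes and 46.4 ± 3.02 in untreated biliary cells. Irx2, an Iroquois homeobox factor, had 68, 85.5 and 63.5 in reprogrammed cells and 33.4, 36.5 and 30.9 in DDC biliary cells (1.08 ± 0.15, adjusted p = 0.000346), while 1 untreated hepatocyte library had 89.2. Vim (vimentin), an intermediate filament of mesenchymal cells, averaged 78.9 ± 14.02 in reprogrammed cells, 45.6 ± 5.64 in DDC biliary cells and 39.7 ± 4.97 in DDC hepatocytes. Esrp2, a splicing factor of epithelia, averaged 137 ± 10.26 in reprogrammed cells, against 185 ± 14.02 in DDC biliary cells, 170 ± 18.5 in DDC hepatocytes, 220 ± 3.11 in untreated biliary cells and 164 ± 24.9 in untreated hepatocytes.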

How the data were processed

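ATAC-seq reads of 15 mouse liver libraries were analysed from a table of 93217 regions, 2 of them mitochondrial. The authors deposited values titled TPM, but they sum to 1000000 in each library without length correction, so they are RPM (reads per 1000000 reads in all regions). The submitters' processing notes name Bowtie2, SAMtools, MACS2, bedtools and mm10, with no version. Values of up to 100 reads were whole reads within 0.02, and larger values were not checked in this way. Counts were recovered by rounding for edgeR and DESeq2.

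Mitochondrial regions were dropped and each library rescaled to 1000000. Each region went to the protein-coding RefSeq gene it touches (the shortest of several) or the nearest within 50 kb, which tied 80462 of 93215 regions to 16750 genes. The test was limma 3.58.1 with a mean-variance trend on log2(nuclear RPM + 1) in the 6 libraries, for genes or regions with a mean of 1 or more, with Benjamini-Hochberg adjustment over all features tested. The test of start pairs used within-library differences and was added after the data were seen. R 4.3.3, edgeR 4.0.16, DESeq2 1.42.0 and Python 3.11.15 were used. The limma, edgeR and start pair tests were tried on simulated data, and DESeq2 was not.

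Members and gene lists were chosen with earlier results of these data known. Genes named are the 12 largest called changes per direction without overlap and with a mean of 10 or more in the higher group (predicted genes left out), 9 genes given in advance (Nox4, Fxyd1, Krt19, Lrfn4, Alb, Hnf4a, Sox9, Spp1 and Epcam), and up to 3 called members per direction of each of 25 lists, or the member with the largest change where fewer passed. For regions they are the 5 largest changes per direction. Sequences come from RefSeq (GRCm38.p6), matched by symbol for 61 of the 85 named genes. A result withheld for evaluation is not reported here.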

Additional observations from a re-analysis of the deposited data

How the results depend on the processing

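Of 78 named genes that were called, 43 lost the call in no alternative that tested them, leaving aside the fit of all 15 libraries. That fit left 4 genes and 0 regions. Genes that an alternative left without a tested region count as not lost there. Trappc11 and Colec10, with no tested region touching the gene, are examples. Counting only regions within 1 kb of a gene end left 585 genes, 53.9% of them higher against 40.8%, and turned the change of Lama3 to 0.0033. Counting only regions that touch the gene turned that of Des to -0.20. The causes were not tested. Without any 1 library the counts ranged from 495 to 1234 genes, 2174 to 6347 regions (3782, 3488 and 2883 without reprogrammed library 1 or 2 or DDC biliary library 3) and 10 to 38 start pairs. Without reprogrammed library 2, 40.1% of called regions were higher, against 29.3%, and without library 1 of that group 20.3%. A mean of 5 or more left 3364 regions of 34500 tested. For genes called, other pseudocounts, scalings, filters, edgeR, DESeq2 and thinning to equal depth gave 1066 to 1415 genes. Leaving out both shallow libraries, an alternative chosen after seeing the data, gave 1280 genes and 7798 regions. Equal replicate numbers correlated at 0.206, 0.0556 and 0.193, so they were not taken as pairs; each library correlated best with its own number, a hint from the data only, and a replicate block gave 1613 genes and 9436 regions. The median region outside promoter windows held 3.46 nuclear RPM, and thinning to equal depth gave 4926 called regions, against 5711. How far depth limits the region calls was not tested.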
